A study of Mus musculus with 19 samples.

Results

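The Igf2bp family comprises 3 mRNA-binding proteins, Igf2bp1, Igf2bp2 and Igf2bp3, and its members were taken by symbol from a table of exon counts, where they are 3 of 25124 genes. Stem cells of the blood (hematopoietic stem cells, HSC) and an early lymphoid-primed progenitor population (LMPP) were compared between fetal liver and adult bone marrow, by RNA sequencing of 11 libraries and by sequencing of open chromatin (ATAC-seq), for which 1 peak list per group was built from 2 libraries. All cells came from C57BL/6 mice with no stated genetic change or treatment: fetal liver at E14.5 and bone marrow at 12 weeks of age. The 4 RNA groups were adult HSC (3 libraries), fetal HSC (2), adult LMPP (3) and fetal LMPP (3). Every population was sorted as cKit+ Sca1+ and negative for CD3, Gr1, B220 and ter119. HSC were further CD48-, CD150+ and Flt3-, and LMPP were CD48+, CD150- and Flt3+. Exclusion of CD11b+ cells is given for the adult sorts and not for the fetal ones. The series text calls the libraries biological replicates but does not say how many animals each one drew on, so a p-value here reflects only how far these libraries spread.

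IGF2BP proteins, also called IMP, bind mRNAs through RRM and KH domains and affect where, for how long and how well those RNAs are translated. They are known as oncofetal proteins, made in the embryo and again in many tumours, and as readers of N6-methyladenosine (m6A), a chemical mark on mRNA. Their mRNAs are textbook targets of let-7 microRNAs, which the RNA-binding proteins Lin28a and Lin28b keep from maturing, and in mouse fetal liver the Lin28b, let-7 and Igf2bp axis is known for its part in fetal-type blood formation. Some let-7 sequences are shown because the members are known targets of these microRNAs. The capitals mark the seed, bases 2 to 8, which pairs with target mRNAs, and all 9 let-7 and miR-98 5p forms in the RefSeq table (build GRCm38.p6) have the same seed.
let-7a-5p: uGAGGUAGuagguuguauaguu
let-7d-5p: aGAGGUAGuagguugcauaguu
let-7g-5p: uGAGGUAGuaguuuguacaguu
miR-98-5p: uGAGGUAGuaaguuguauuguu
The 4 forms shown differ only outside the seed. Mature microRNAs were not measured in these libraries.

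RNA levels of all 3 genes were higher in both fetal populations than in their adult counterparts, and no fetal library overlapped an adult one. Against this shared direction the genes differed in cell preference: within each age Igf2bp2 was higher in HSC than in LMPP, Igf2bp3 was higher in fetal LMPP than in fetal HSC, and Igf2bp1 was not seen in any adult library. Levels are counts per 1000000 counts of the library after TMM scaling (CPM), and differences are log2 values from edgeR's quasi-likelihood test with Benjamini-Hochberg adjustment over 14736 genes. All 3 genes passed the filter on low counts. Of all genes tested, 2.07% were called higher and 2.9% lower in fetal than in adult HSC (4.97% in all), and 7.06% higher and 8.27% lower in fetal than in adult LMPP (15.3% in all). The share of all genes whose fetal and adult libraries do not overlap was not counted. With 2 or 3 libraries per group, genes that were not called can also lack overlap. Ybx1, for example, did not overlap between fetal and adult HSC and was not called by edgeR (adjusted p = 0.678). In bulk samples, a smaller share of cells with an RNA and less of that RNA per cell cannot be told apart.

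**Figure D1:**
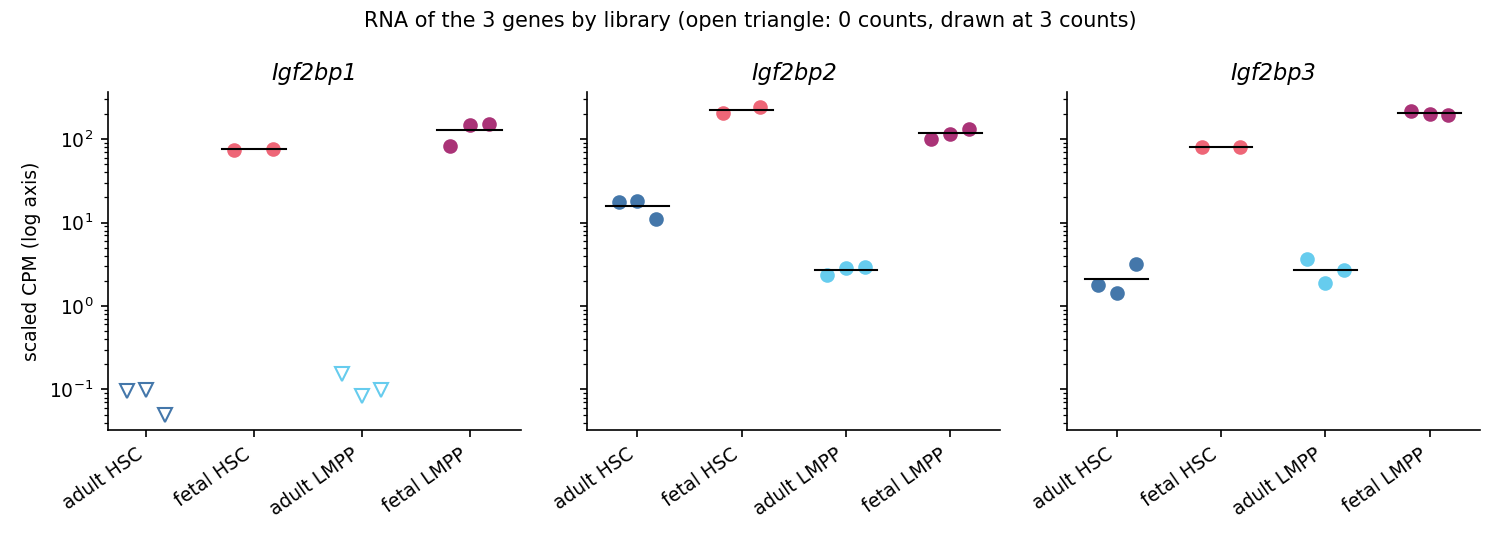
RNA level of each gene in each of the 11 libraries, in scaled CPM on a log axis. Points are libraries, lines are group means, and open triangles are libraries with 0 counts drawn at the level of 3 counts; every fetal point lies above every adult point of its gene, with fetal values from 74.6 to 240 CPM.

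Igf2bp1 (NM_009951, chromosome 11, 95957164 to 96005944, minus strand, mm10) encodes the founding member, IMP1 or zipcode-binding protein, which carries beta-actin mRNA and shields RNAs from decay. It stood at 74.6 and 76.9 CPM in the 2 fetal HSC libraries. The 3 fetal LMPP libraries held 81.8, 149 and 150 CPM. No count fell on Igf2bp1 in any of the 6 adult libraries, which together held 205795169 counts. All fetal libraries were thus far from all adult ones, and 1 of the fetal LMPP libraries, replicate 1, lay close to the fetal HSC level while the other two lay above it.

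Igf2bp1 averaged 75.8 ± 1.63 CPM (SD, n = 2) in fetal HSC and 127 ± 39.2 CPM (SD, n = 3) in fetal LMPP. With 3 counts per library as the limit for a count of 0, from 0.0498 to 0.152 CPM in the adult libraries, Igf2bp1 was at least 937-fold higher in fetal than in adult HSC (adjusted p = 0.000134) and at least 1142-fold higher in fetal than in adult LMPP (adjusted p = 5.05e-05). Fetal LMPP exceeded fetal HSC by 0.75 ± 0.32 (log2, SE), with a 95% interval from -0.01 to 1.5, and this did not pass the test (adjusted p = 0.155). The call depended on fetal LMPP replicate 1: without it the difference was 0.97 (adjusted p = 0.046). A comparison of LMPP with HSC in adult marrow was not made, since both groups were at 0.

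A microRNA gene, Mir3063 (NR_037223, chromosome 11, 95963292 to 95963383), lies within Igf2bp1 on the same strand and has its own row in the table. Its mature forms are shown because their reads overlap the member's own gene; the capitals again mark bases 2 to 8.
miR-3063-5p: uGGAGAUCagguuugcacacu
miR-3063-3p: uGAGGAAUccugaucucucgcc
The Mir3063 row held 66 and 119 counts in fetal HSC, then 199, 147 and 129.5 in fetal LMPP, and 0 in the 6 adult libraries. These were from 3.48% to 4.32% of the Igf2bp1 count of the same library. The Mir3063 row is 1.09% as long as the Igf2bp1 exons. Reads of the host mRNA and of the microRNA precursor cannot be told apart there, so the row is not read as expression of the microRNA.

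Igf2bp2 (NM_183029, chromosome 16, 22059009 to 22163299, minus strand) encodes IMP2, the member that adult tissues are known to keep, with roles in metabolism and in stem cells of several tissues. The bases just before its start site are shown because this window lay in an open region in 3 of the 4 peak lists; they are chr16:22163300-22163549 (minus strand, RefSeq, build GRCm38.p6), written 5′ to 3′ with GC boxes in capitals.
Igf2bp2: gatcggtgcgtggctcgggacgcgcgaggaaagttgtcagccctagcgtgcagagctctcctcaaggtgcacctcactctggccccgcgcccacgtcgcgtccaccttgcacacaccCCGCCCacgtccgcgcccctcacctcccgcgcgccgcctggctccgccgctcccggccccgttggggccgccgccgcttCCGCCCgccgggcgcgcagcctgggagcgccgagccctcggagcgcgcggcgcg
The motifs searched, 6 in all and on both strands, were the E-box CACGTG, the CCAAT box CCAAT, the GC box GGGCGG, the TATA box TATAAA, the GATA motif AGATAA and the ETS core CCGGAA. The Igf2bp2 window held 2 GC boxes, which do not overlap, and none of the other motifs. Of 32851 mouse promoter windows of the same 250 bases, 32.7% held a GC box. G and C made up 77.2% of the Igf2bp2 window, against a median of 52.4% over all windows.

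Per length, Igf2bp2 was the most abundant member in adult HSC (4.03 CPM per kilobase of exon, against 0.493 for Igf2bp3). It stood at 17.5, 18.2 and 11.2 CPM in adult HSC and at 205 and 240 CPM in fetal HSC. In LMPP it stood at 2.37, 2.83 and 2.92 CPM in adult marrow and at 100, 117 and 134 CPM in fetal liver. The 4 groups did not overlap, and they ran from fetal HSC through fetal LMPP and adult HSC to adult LMPP.

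The fetal excess of Igf2bp2 was 3.83 ± 0.24 in HSC (log2, SE; adjusted p = 2.78e-05), from 15.6 ± 3.88 CPM (SD, n = 3) to 222 ± 25.2 CPM (SD, n = 2). In LMPP it was 5.42 ± 0.25 (adjusted p = 1.49e-06), from 2.71 ± 0.29 CPM (SD, n = 3) to 117 ± 16.8 CPM (SD, n = 3). These are 14.2-fold and 43.2-fold differences. The LMPP excess minus the HSC excess, 1.59 ± 0.32, passed the test of the interaction (adjusted p = 0.0494), a test that 0.957% of genes passed and 0.414% passed in this direction, but only just: with the replicate block it was 1.62 (adjusted p = 0.097), and it passed in only 1 of 11 fits that each left out 1 library, the one without adult HSC replicate 3.

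Within an age, Igf2bp2 was lower in LMPP than in HSC. In adult marrow it fell by 2.52 ± 0.22 on the log2 scale (adjusted p = 6.47e-05), where 17.1% of genes were called, 7.77% higher and 9.3% lower. That comparison called 2515 genes, 2321 with the replicate number as a block over all 11 libraries, and 4338 when the fit both took the adult libraries alone and had the block. Igf2bp2 passed in each (adjusted p = 0.0012 in the last). In fetal liver it fell by 0.93 ± 0.22 (adjusted p = 0.0186), where 18% of genes were called and 9.81% were lower. The fetal call was lost without fetal HSC replicate 1 or 2, or without fetal LMPP replicate 1 or 2 (adjusted p from 0.057 to 0.17).

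Igf2bp3 (NM_023670, chromosome 6, 49085218 to 49214954, minus strand) encodes IMP3, the member best known from fetal tissue and from tumours, leukaemias among them. The bases before its start site, chr6:49214955-49215204 (minus strand, RefSeq, build GRCm38.p6), are shown because they lay in an open region of fetal LMPP and in none of the adult lists; the capitals mark a CCAAT box and an E-box.
Igf2bp3: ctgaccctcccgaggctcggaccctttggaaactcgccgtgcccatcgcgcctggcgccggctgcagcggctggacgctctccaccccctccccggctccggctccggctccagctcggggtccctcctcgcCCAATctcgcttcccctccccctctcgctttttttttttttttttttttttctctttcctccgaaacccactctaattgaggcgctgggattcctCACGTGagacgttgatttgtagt
The CCAAT box began 118 bases and the E-box 23 bases before the start site, and the 2 do not overlap. An E-box was found in 6.0% of the 32851 windows and a CCAAT box in 33.8%. G and C made up 60.4% of the window, and the longest run of a single base was 23 T. The Igf2bp2 and Igf2bp3 windows shared none of the 6 motifs. The start site used here is that of NM_023670, and RefSeq holds other models of Igf2bp3 that reach upstream to 49215469. No window was given for Igf2bp1.

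Igf2bp3 was low in both adult populations and highest in fetal LMPP. It stood at 1.79, 1.42 and 3.20 CPM in adult HSC and at 81.2 and 79.5 CPM in fetal HSC. It stood at 3.61, 1.86 and 2.72 CPM in adult LMPP and at 215, 200 and 197 CPM in fetal LMPP. The adult groups overlapped each other, while both fetal groups lay apart from them and from each other. The adult values rest on 43.5 to 192.5 counts per library, and those in fetal liver on 2065.5 to 12073.

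The fetal excess of Igf2bp3 was 5.20 ± 0.35 in HSC (log2, SE; adjusted p = 3.61e-05), 37.6-fold, and 6.23 ± 0.36 in LMPP (adjusted p = 7.47e-06), 74.6-fold. The difference between these, 1.03 ± 0.44, did not pass the test of the interaction (adjusted p = 0.358). Within fetal liver, LMPP exceeded HSC by 1.34 ± 0.33 (adjusted p = 0.0195), from 80.3 ± 1.21 CPM (SD, n = 2) to 204 ± 9.54 CPM (SD, n = 3); 8.21% of genes were higher in that comparison. This call was lost without fetal HSC replicate 1 or 2, or without fetal LMPP replicate 2 (adjusted p from 0.05 to 0.15). In adult marrow the LMPP to HSC difference was 0.31 ± 0.31, with a 95% interval from -0.37 to 0.99 (adjusted p = 0.574).

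**Figure D2:**
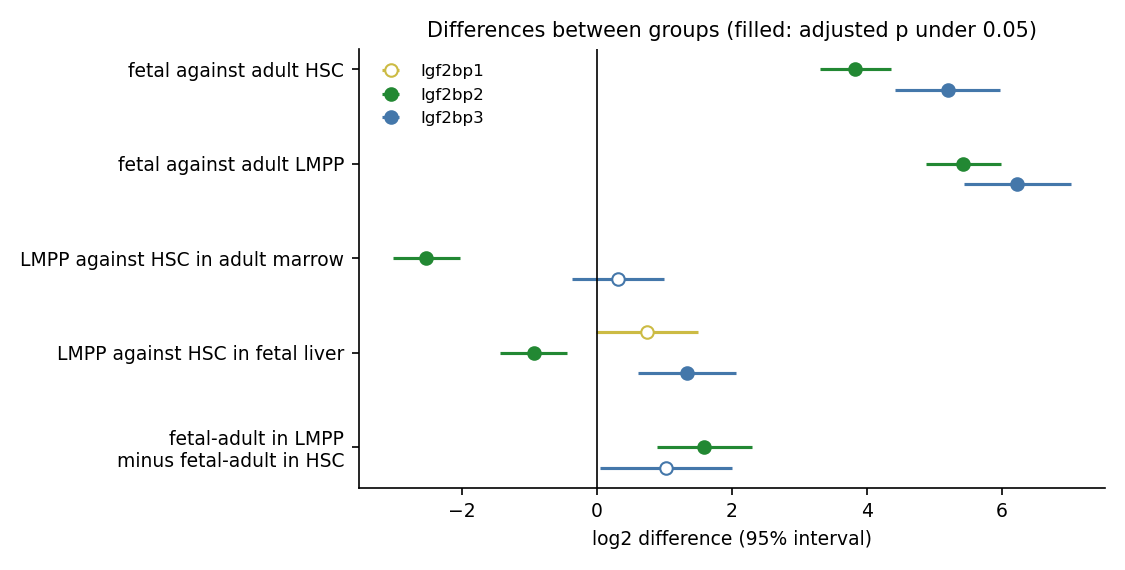
Differences between groups on the log2 scale (x axis) with 95% intervals, from edgeR, for the comparisons named on the y axis; filled points passed an adjusted p of 0.05. Igf2bp2 lies at -2.52 and -0.93 for LMPP against HSC, while Igf2bp3 lies at 0.31 and 1.34; the bounds of Igf2bp1 against the adult groups at 0 are not drawn.

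Within a gene the levels had this order. For Igf2bp1 and Igf2bp3 fetal LMPP came first and fetal HSC second, and those neighbours differed by the test for Igf2bp3 only. For Igf2bp3 the last places, adult LMPP and adult HSC, did not differ beyond their spread. For Igf2bp2 the tests separated fetal HSC from fetal LMPP and adult HSC from adult LMPP, and the lowest fetal LMPP library (100 CPM) was above the highest adult HSC library (18.2 CPM), a pair that was not tested.

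Levels of the 3 genes can be compared with each other only per length, as CPM per kilobase of exon (RPKM; exon lengths 8364, 3881 and 4330 bases). Summed over the family, the level was 4.52 ± 0.784 RPKM in adult HSC (SD, n = 3), 84.9 ± 6.41 in fetal HSC (SD, n = 2), 1.33 ± 0.15 in adult LMPP (SD, n = 3) and 92.3 ± 6.51 in fetal LMPP (SD, n = 3). The fetal sum was 18.8 times the adult one in HSC and 69.5 times in LMPP. The sums of the fetal groups overlapped, from 80.4 to 89.4 RPKM in HSC and from 85.1 to 97.8 RPKM in LMPP.

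The make-up of that sum differed between cell types. Igf2bp2 gave 88.2 ± 7.54% of the per-length family RNA in adult HSC (SD, n = 3) and 67.4 ± 2.56% in fetal HSC (SD, n = 2). In LMPP it gave 53.2 ± 10.3% in adult marrow (SD, n = 3) and 32.5 ± 2.5% in fetal liver (SD, n = 3). Igf2bp3 gave 11.8% in adult and 21.9% in fetal HSC, but 46.8% in adult and 51.2% in fetal LMPP. Igf2bp1 gave 10.7% in fetal HSC and 16.3% in fetal LMPP, and 0 in the adult groups.

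At both ages the shares of Igf2bp2 and of Igf2bp3 did not overlap between HSC and LMPP. The Igf2bp2 share was lower in LMPP by 35 percentage points in adult marrow and by 34.9 in fetal liver. A two-sided exact permutation test of each gave p = 0.1, the smallest that these numbers of libraries allow, and 0.125 after adjustment over 5 comparisons. The same p-values held for Igf2bp3, which was higher in LMPP by 35 and 29.3 points. In adult marrow, where Igf2bp1 was at 0, the Igf2bp3 share is the remainder of the Igf2bp2 share, so its test repeats that of Igf2bp2. The level of Igf2bp3 itself did not pass the edgeR test there (log2 difference 0.31 ± 0.31, adjusted p = 0.574). For Igf2bp1 in the fetus the exact permutation p was 0.2, both before and after adjustment.

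**Figure D3:**
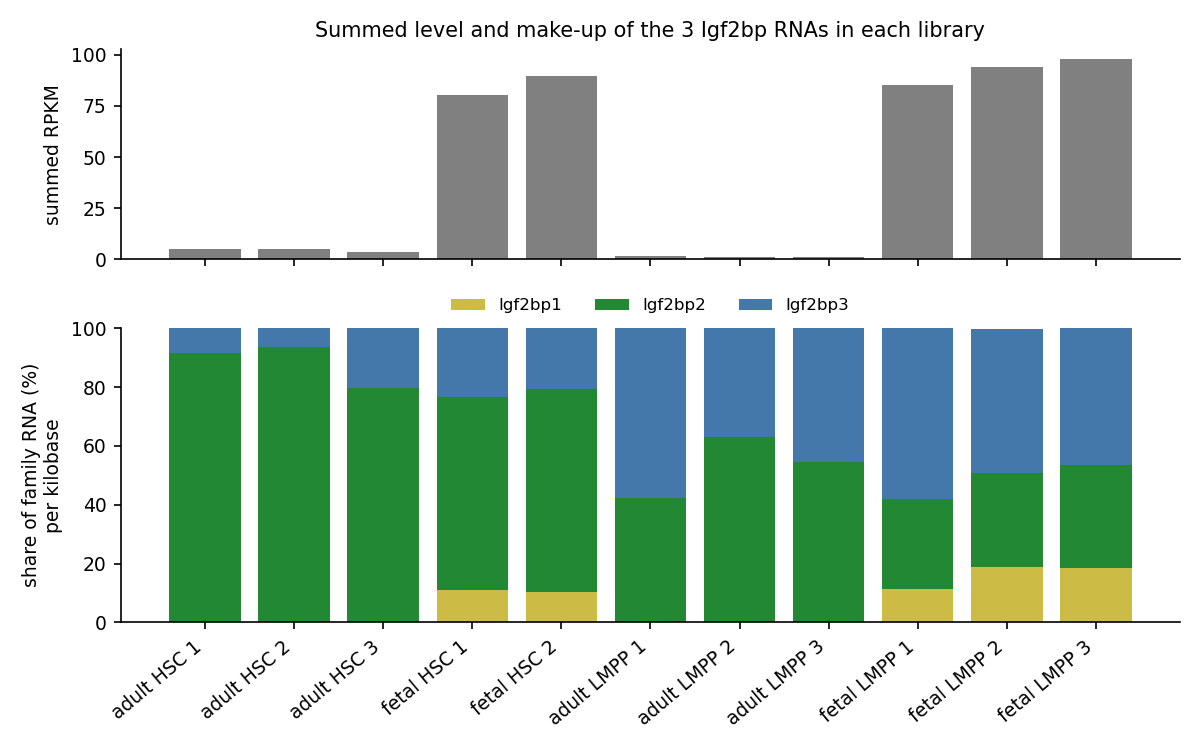
Upper panel: level of the 3 RNAs summed, in RPKM, for each library. Lower panel: share of that sum from each gene, in percent; Igf2bp2 gives 65.6% or more in each HSC library and 62.9% or less in each LMPP library.

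Libraries held from 19799398 to 64783926 counts. Correlations of log2 CPM over 14736 genes ran from 0.917 to 0.964 within groups and from 0.796 to 0.905 between groups. LMPP libraries were close in mean correlation with their own group, from 0.943 to 0.949 in the adult and from 0.942 to 0.95 in the fetus. Adult HSC replicate 3, adult LMPP replicate 3 and fetal LMPP replicate 1 each had the lowest such value in their group (0.92, 0.943 and 0.942). They are called the 3 libraries that stood apart, though the LMPP ones did so only slightly. They were picked from these same data. Leaving them out raised the genes called from 732 to 2336 in fetal against adult HSC, and from 2259 to 4415 in LMPP. A call kept or gained without them is thus no independent check. Without these 3 libraries every member kept its call in every comparison except Igf2bp1 in fetal LMPP against fetal HSC, which then passed (0.97, adjusted p = 0.0014); the fetal excess of Igf2bp2 was then 3.63 in HSC and 5.55 in LMPP, and that of Igf2bp3 was 5.62 and 6.23. The sorted populations carried their markers: 8 HSC markers summed to 1406 to 1689 CPM in adult HSC and 1445 to 1675 in fetal HSC, against 152.7 to 232.7 and 299.7 to 434.9 in adult and fetal LMPP. The 8 LMPP markers summed to 2857 to 3301 CPM in adult LMPP but 1167 to 1196 in fetal LMPP, and to 23.49 to 36.14 in adult HSC and 89.22 to 89.87 in fetal HSC. In fetal LMPP 2 of them were lower (Flt3 and Dntt, with Dntt at 0) and 2 higher (Ccr9 and Rag1) than in adult LMPP, and in fetal HSC 2 were higher (Flt3 and Satb1) and none lower than in adult HSC. The fetal and adult LMPP sorts thus differed in their own markers, and the part of this in the levels of the 3 genes was not tested.

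Markers of other cells of the fetal liver were measured beside the members. Erythroblast markers summed to 62.9 to 183.3 CPM in adult HSC, 1824 to 2058 in fetal HSC, 38.77 to 77.41 in adult LMPP and 244.3 to 741.5 in fetal LMPP, with 4 of 10 tested markers higher in the fetus in both cell types. Those 4 were beta-globin genes (Hbb-bt, Hbb-bs, Hbb-b1 and Hbb-b2) in both. Of the 13 erythroblast markers, 13 had counts in fetal HSC and 11 in fetal LMPP, where Slc4a1 and Epb42 were at 0, against 10 in adult HSC and 9 in adult LMPP. Hepatocyte markers, 13 in all, summed to 63.8 to 92.03 CPM in adult HSC, 63.74 to 149.2 in fetal HSC, 257.8 to 306.4 in adult LMPP and 89.9 to 194.1 in fetal LMPP. Alb was at 0 in the adults, from 0.2358 to 13.73 CPM in fetal HSC and from 0.8868 to 13.24 in fetal LMPP. None of these 13 was called in HSC, and in LMPP Alb and Apoa1 were higher and Trf lower in the fetus. Megakaryocyte markers summed to 611.4 to 1632 CPM in adult and 186 to 256.6 in fetal HSC, with Pf4 called lower. In LMPP 3 of them were higher in the fetus. Of endothelial and stromal markers, Cdh5 and Plvap were higher and Pdgfrb lower in fetal HSC, and Kdr was higher in fetal LMPP. Macrophage markers had 2 lower calls in fetal LMPP. Neutrophil markers had 1 higher call in fetal HSC and 2 in fetal LMPP. The part of such cells in the levels of the 3 genes was not tested.

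The let-7 pathway was described by a list of 22 genes for the Lin28 proteins, the microRNA processing machinery and known let-7 targets, of which 20 were tested. In HSC 2 were higher in the fetus and none lower, with a median difference of 0.28 (log2), against 0 over all genes. Those were Lin28b, the inhibitor of let-7 maturation, and Hmga2, a chromatin protein and let-7 target. In LMPP 4 were higher and none lower, with a median of 0.32: Lin28b, Hmga2, Arid3a and Nras. Of all genes, 2.07% were called higher in fetal HSC and 7.06% in fetal LMPP. Without the 3 libraries that stood apart, 6 were higher and 2 lower in HSC, and 8 higher and 3 lower in LMPP. The shares of all genes called were also larger in that setting, with 7.58% higher and 8.58% lower in HSC (16.2% in all) and 15.2% higher and 15.3% lower in LMPP (30.5% in all). DESeq2 called 5 of the list in HSC, where it called 10.4% of all genes, and 5 in LMPP, where it called 23.1% of all genes.

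Lin28b stood at 0.792, 0.195 and 0.15 CPM in adult HSC and at 29.5 and 21 CPM in fetal HSC. It was at 0 in the 3 adult LMPP libraries and at 27.8, 47.6 and 35.2 CPM in fetal LMPP. Its fetal excess was 6.11 ± 0.66 in HSC (adjusted p = 0.00132) and at least 331-fold in LMPP (adjusted p = 0.000196). The groups of the 2 ages were wide apart, and the fetal HSC and fetal LMPP libraries overlapped. Its paralog Lin28a was at 0 in 9 of the 11 libraries and at most at 0.212 CPM, and was not tested.

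Hmga2 rose by 5.39 ± 0.47 in HSC (log2; adjusted p = 0.000159), from 2.89 to 119.6 CPM on average. In LMPP it rose by 4.12 ± 0.42 (adjusted p = 0.000226), from 11.83 to 205.6 CPM. Arid3a, a let-7 target and transcription factor of fetal B cells, was higher by 3.44 ± 0.63 in fetal LMPP (adjusted p = 0.00536), and by 2.47 ± 0.64 in fetal HSC, where it missed the threshold (adjusted p = 0.0553). Arid3a did pass in HSC with DESeq2 (adjusted p = 0.0017), with no filter on low counts (0.048), without adult LMPP replicate 3 (0.04) or fetal LMPP replicate 1 (0.05), and without the 3 libraries that stood apart (0.00088). Nras, a small GTPase, was higher by 0.54 ± 0.13 in fetal LMPP (adjusted p = 0.0183). That call was lost with only the groups compared (adjusted p = 0.058) and without adult LMPP replicate 2 or 3 or fetal LMPP replicate 2 or 3 (adjusted p from 0.053 to 0.076). In HSC Nras, at 0.50, passed with DESeq2 (adjusted p = 0.0027) and without the 3 libraries that stood apart (adjusted p = 0.013). In the main fit, none of the genes for let-7 processing (Drosha, Dgcr8, Xpo5, Dicer1, Tarbp2) or for decay of its precursor (Dis3l2) was called in HSC or LMPP. Without the 3 libraries that stood apart the list held 8 higher and 3 lower calls in LMPP, so this absence of calls is stated for the main fit only.

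Among 22 RNAs known to be bound by IGF2BP proteins, 21 were tested. In HSC 5 were higher in the fetus (H19, Hmga2, Igf2, Lin28b and Ccnd1) and 3 lower (Myc, Aldh1a1 and Abcb1b), with a median difference of 0.5 (log2). In LMPP 7 were higher (H19, Lin28b, Hmga2, Igf2, Ccnd1, Fscn1 and Nras) and 1 lower (Myb), with a median of 0.37. Of all genes, 2.07% were called higher and 2.9% lower in HSC, and 7.06% higher and 8.27% lower in LMPP. Without the 3 libraries that stood apart the counts were 11 higher and 6 lower in HSC, and 10 higher and 5 lower in LMPP. The shares of all genes were then 7.58% higher and 8.58% lower in HSC, and 15.2% higher and 15.3% lower in LMPP. The list shares Hmga2, Lin28b and Nras with the let-7 list.

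Igf2, the growth factor for whose mRNA the family is named, stood at 0.222, 0.911 and 0.482 CPM in adult HSC and at 30.5 and 40.2 CPM in fetal HSC. Its fetal excess in HSC was 6.04 ± 0.61 (adjusted p = 0.000369). In LMPP it was near 0 in adult marrow and at 2, 1.22 and 1.47 CPM in fetal liver. From fetal HSC to fetal LMPP it thus fell by 4.48 ± 0.57 on the log2 scale (adjusted p = 0.000945). H19, a noncoding RNA of the same imprinted locus, stood at 63.8 and 82.7 CPM in fetal HSC and from 7.99 to 8.63 CPM in fetal LMPP.

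Myc, whose mRNA Igf2bp1 is known to shield from decay, was lower in fetal HSC. It stood at 472, 373 and 522 CPM in adult HSC and at 154 and 139 CPM in fetal HSC, and so fell by 1.64 ± 0.17 (log2; adjusted p = 0.000465). In LMPP the adult and fetal means were 663 and 558 CPM, with a difference of -0.25 ± 0.14 (adjusted p = 0.28). Ccnd1, the gene for the G1 cyclin D1, was higher in the fetus by 1.27 ± 0.22 in HSC (adjusted p = 0.00818) and by 1.56 ± 0.21 in LMPP (adjusted p = 0.000912). Other well-known bound RNAs were not called in either cell type, among them Actb (0.69 ± 0.29 and 0.44 ± 0.26), Cd44 (0.80 ± 0.31 and -0.44 ± 0.29) and Cdk6 (-1.16 ± 0.40 and -1.03 ± 0.34), given as fetal minus adult log2 values in HSC and in LMPP. Without the 3 libraries that stood apart these 3 genes were called in both cell types: Actb at 0.38 (adjusted p = 0.016) and 0.34 (adjusted p = 0.014), Cd44 at 0.51 (adjusted p = 0.012) and -0.66 (adjusted p = 0.0021), and Cdk6, the G1 kinase gene, at -1.47 (adjusted p = 9.1e-05) and -1.09 (adjusted p = 0.00033). DESeq2 also called Cdk6 in both (adjusted p = 0.037 and 0.018), and the fit of only the groups compared called it in LMPP (adjusted p = 0.043). With 1 library left out, Cdk6 was called in both cell types without adult HSC replicate 3 and in LMPP without adult LMPP replicate 3, and Actb in LMPP without adult HSC replicate 3.

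**Figure D4:**
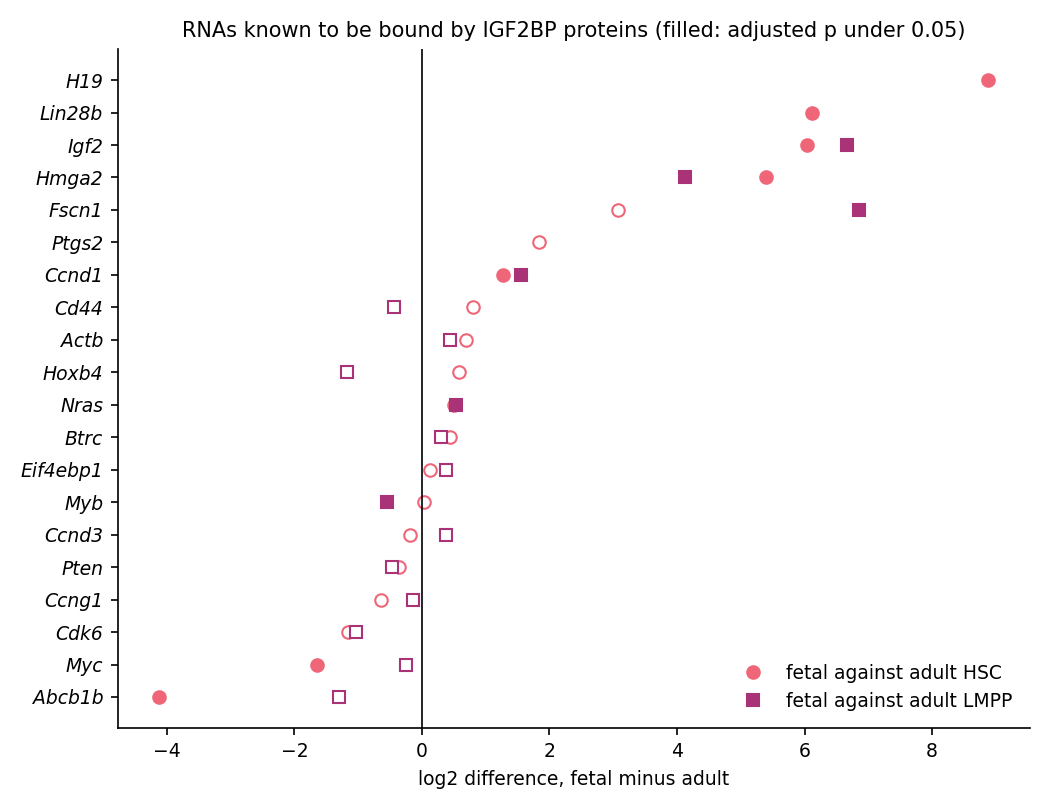
Fetal minus adult difference (x axis, log2) in HSC (circles) and LMPP (squares) for RNAs known to be bound by IGF2BP proteins; filled symbols passed an adjusted p of 0.05. H19, Lin28b, Igf2 and Hmga2 lie at 5.39 or more in HSC and Myc at -1.64; comparisons with a group at 0 are not drawn.

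The RNA-binding partners of the family and the m6A machinery were described in the same way. Of 20 partner genes, 0 were called in HSC by edgeR and 0 by DESeq2, and 1 had an unadjusted p under 0.05; the median was 0.23. In LMPP 5 were higher in the fetus and none lower (median 0.42). They were Ybx1 (0.77 ± 0.10, adjusted p = 0.00108), a packaging protein of translated mRNA, Elavl1 (0.62 ± 0.11, adjusted p = 0.00536), which stabilises mRNAs with AU-rich elements, G3bp1 (0.58 ± 0.12, adjusted p = 0.0098), a stress granule protein, Hnrnpab and Hnrnpu. Hnrnpab lost its call without adult LMPP replicate 2 (adjusted p = 0.054) or fetal LMPP replicate 2 (adjusted p = 0.051), and the list held 3 calls without fetal LMPP replicate 2. Without the 3 libraries that stood apart 9 were higher and none lower in LMPP, and 0 were called in HSC. Of all genes, 7.06% were called higher in fetal LMPP, and 15.2% without the 3 libraries.

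Of 18 genes for writers, erasers and readers of m6A, 0 were called in HSC by edgeR and 0 by DESeq2, and 1 had an unadjusted p under 0.05 (median 0.19). In LMPP Hnrnpa2b1, a nuclear reader, was the only one called, higher by 0.45 ± 0.11 (adjusted p = 0.0185; median of the list 0.39). The Hnrnpa2b1 call was lost with only the groups compared (adjusted p = 0.061) and without adult LMPP replicate 1 or 2 or fetal LMPP replicate 1 or 2 (adjusted p from 0.058 to 0.086). With 1 library left out the list held from 0 to 3 calls in LMPP: 0 without adult LMPP replicate 1 or fetal LMPP replicate 1 or 2, 3 without adult HSC replicate 3 and 2 without adult LMPP replicate 3. It held 2 with the replicate block. DESeq2 called 5 of the 18 in LMPP, where it called 23.1% of all genes. Without the 3 libraries that stood apart 2 were higher in HSC, and 7 were higher and 1 lower in LMPP. The shares of all genes were then 7.58% higher in HSC, and 15.2% higher and 15.3% lower in LMPP. In the main fit 7.06% of all genes were called higher in fetal LMPP.

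The genes most like each member were ranked by Pearson's r of log2 CPM over the 11 libraries, which share their 4 groups, so that r mostly reflects differences between groups. The ranking left out predicted and clone-named genes. Among the 10173 other genes that averaged 5 CPM or more, Igf2bp1 was closest to Rps4l (0.990), Id3 (0.988) and Igf2bp3 (0.986). Igf2bp3 was closest to Id3 (0.991), Igf2bp1 (0.986) and Hmga1b (0.984). Igf2bp2 was closest to H19 (0.983), Lin28b (0.980) and Zcchc3 (0.979), and its r was 0.911 with Igf2bp1 and 0.856 with Igf2bp3. Id3 encodes a protein that blocks DNA binding by helix-loop-helix factors and averaged 0.504 CPM in adult HSC, 42.0 in fetal HSC, 0.834 in adult LMPP and 61.5 in fetal LMPP. Rps4l and Hmga1b are near copies of Rps4x and Hmga1, so the split of reads between copies is uncertain.

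Igf2bp1 and Igf2bp3 had open chromatin within 1 kb of the start site in the fetal lists only, and Igf2bp2 also in adult HSC. Peaks were called by the authors, 1 list per group, with 53068 distinct peaks in adult HSC, 48286 in fetal HSC, 50579 in adult LMPP and 37156 in fetal LMPP, so absence from a list has no replicate check. A peak lay within 1 kb of a start site for 55.9%, 55%, 53.1% and 50.1% of all 25124 genes in those lists. The start sites of Igf2bp1 and Igf2bp3 had one in both fetal lists and in neither adult list, a pattern of 0.505% of start sites (127). That of Igf2bp2 had one in every list but adult LMPP, a pattern of 1.4% (351).

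Near Igf2bp1 there was 1 open region within 20 kb of the gene, chr11:96005498-96007861, listed in both fetal groups. In fetal HSC it held a peak over the start site (96005498 to 96006470, signal 3.09) and a second, 0.91 kb upstream (signal 4.63). In fetal LMPP a single peak (96006458 to 96007861, signal 2.91) began 0.51 kb upstream of the start. These were weak peaks: 0.9% and 1.9% of their lists had a lower signal than the start-site peak of fetal HSC and the peak of fetal LMPP. Signal is the authors' value and ranks peaks within 1 list only.

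Igf2bp2 had 7 open regions. The one at the start site (chr16:22162326-22163954) covers the whole sequence window shown above in adult HSC, fetal HSC and fetal LMPP. A pair of regions within the gene, 47.1 and 67.4 kb from the start, were in both HSC lists and in neither LMPP list. Another, 44.0 kb from the start, was in both LMPP lists and in neither HSC list. The remaining 3 were in 1 list each, 2 of them in fetal LMPP and 1 in adult LMPP. The list without a start-site peak, adult LMPP, is that of the group with the lowest Igf2bp2 RNA. Start-site peaks in the other lists were weak by signal, at percentile 5.4 of its list in adult HSC, 18.2 in fetal HSC and 14.8 in fetal LMPP.

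Igf2bp3 had 8 open regions. At the start site (chr6:49214619-49215859) the fetal LMPP peak covers the window shown above, while the fetal HSC peak (49215318 to 49215807, −log10 q of 60.5) begins 0.36 kb upstream of the start, beyond that window, and overlaps the upstream end of the longer RefSeq models. About 3.0 kb upstream, chr6:49217504-49218459 was listed in all 4 groups. Its −log10 q was 155 in fetal HSC, 83.2 in fetal LMPP, 31.7 in adult HSC and 14.0 in adult LMPP. The authors' signal for it was 11.3, 7.19, 9.53 and 4.99 in the same order, so the lists rank differently by signal than by −log10 q. Neither value was compared between lists by a test. With 5 kb in place of 1 kb, Igf2bp3 counts as open in 4 lists because of this region.

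Of the other 6 regions near Igf2bp3, 1 in the gene (38.7 kb from the start) was in every list but adult LMPP. Another (6.3 kb) was in both LMPP lists, and its neighbour (5.8 kb) was in both fetal lists. A pair of regions upstream, 12.4 and 13.4 kb from the start, were in the fetal HSC list alone. The last, past the far end of the gene and open in all 4 lists, lies at the start site of Malsu1. RefSeq places an lncRNA, D030074P21Rik, inside Igf2bp3 and lets Malsu1 reach into it, and reads from those models cannot be told apart from Igf2bp3 reads where exons overlap.

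**Figure D5:**
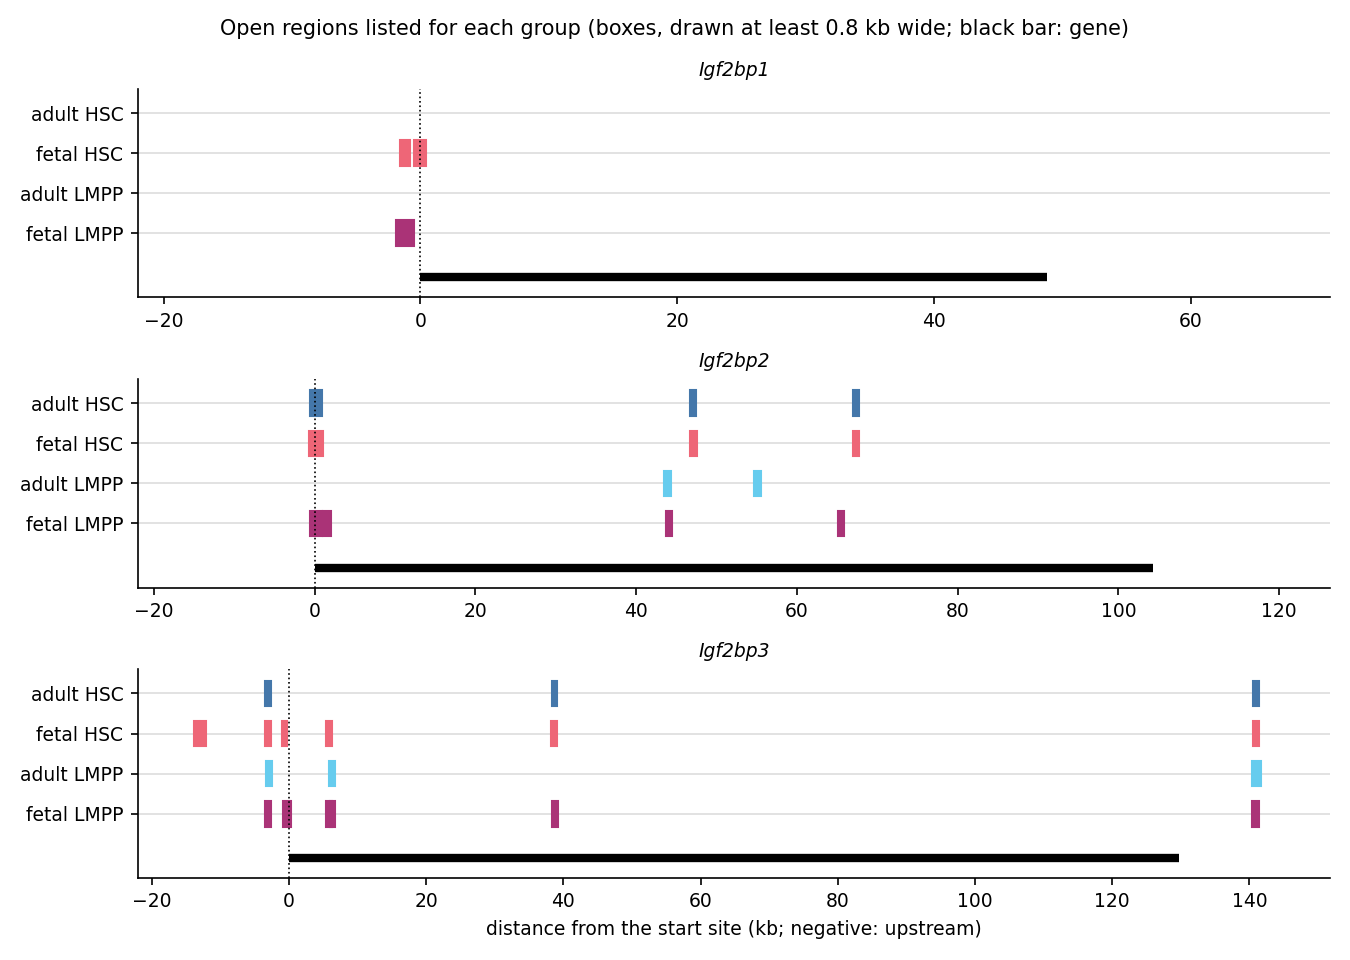
Open regions in each group's list (rows) by distance from the start site in kb (x axis, negative upstream), with the gene as a black bar. Within 1 kb of the start, Igf2bp1 and Igf2bp3 have boxes in the fetal rows only, and Igf2bp2 in every row but adult LMPP.

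Most genes with the same start-site pattern were not called higher in the fetus. Of the 127 genes with peaks in both fetal lists only, 58 were tested; 5 (8.62%) were higher in fetal HSC and 10 (17.2%) in fetal LMPP, against 2.07% and 7.06% of all genes, and Igf2bp1 and Igf2bp3 are among them; 2 were lower in fetal HSC and 5 in fetal LMPP. Of the 351 with the Igf2bp2 pattern, 214 were tested; 5 (2.34%) were higher and 7 lower in fetal HSC, and 23 (10.7%) were higher and 14 lower in fetal LMPP. Igf2bp2 is among the higher genes in both.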

How the data were processed

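RNA libraries were made with the SMART-Seq v4 kit and ATAC libraries with Tn5, per the labels' protocols. The submitters' processing notes name MACS2, Bowtie2 2.3.5, SAMtools 1.9, STAR and other tools without saying which step each served. Per the file headers, the authors counted exon reads per gene with HOMER on mm10 and deposited expected counts (22.5% of the values are not whole) for 11 libraries, with each gene's transcript, position and length. These were rounded to whole numbers, with each 0.5 rounded up. The deposited peak lists hold a signal value (a fold or ratio over background as MACS2 writes it), a score, and a −log10 q value for each peak; each list combines 2 libraries, per the labels, and lines for the same interval were merged, keeping the highest signal.

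edgeR 4.0.16 (R 4.3.3) fitted a quasi-likelihood model with a mean for each of the 4 groups after TMM scaling and its filter on low counts. Genes with an adjusted p under 0.05 were called. A fold against a group at 0 was computed against 3 counts per library. Shares of the family sum were compared by an exact permutation test. Alternatives were median-of-ratios scaling, DESeq2 1.42.0, no filter, only the groups compared, the replicate number as a block, leaving out each library, and leaving out 3 libraries that stand apart. Those 3 were picked from the same data. The code was tested on simulated counts with a smaller spread than these data, which checks the code and not its error rates here.

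Deviations from the group mean correlated with r from 0.109 to 0.351 over the 3 same-numbered pairs of adult HSC and adult LMPP libraries. Differently numbered adult pairs ran from -0.265 to 0.14. Adult HSC replicate 1 was closer to adult LMPP replicate 2 (0.14) than to replicate 1 (0.109). Adult HSC replicate 3 and fetal LMPP replicate 1, which differ in age, reached 0.194. Whether adult libraries are paired cannot be told from these values, and the labels do not say. A fit of the adult libraries alone with the block, which changes both choices at once, was added after seeing the data.

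The members, the gene lists and the tests were chosen with earlier results of these data known. Named genes are the members; up to 4 called genes of each list with the lowest p; 10 genes set by name (Lin28b, Lin28a, Igf2, H19, Hmga2, Myc, Cdk6, Cd44, Actb and Elavl1); and the 3 genes most like each member. Other genes named in the lists were chosen after their values were seen. A gene of the let-7 and bound-RNA lists and a gene of the LMPP markers are not reported here and were left out of those counts. Promoter windows were found for 2 of the 3 members, and no protein sequence was used here.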

Additional observations from a re-analysis of the deposited data

Results flagged for a closer look

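The fetal excess of Igf2bp2 passed a test of a difference between the cell types, but not under most alternatives that left out a library: the fetal minus adult difference was 1.59 (log2) larger in LMPP than in HSC, by a test of that interaction in edgeR (adjusted p = 0.0494). All fetal libraries were above all adult ones in both cell types, a separation whose share over all genes was not counted. The p-value lies at the threshold. DESeq2 and the fit without the 3 libraries that stood apart called more genes in this test, 661 and 781 against 141. The call was lost with the replicate block (1.62, adjusted p = 0.097) and in 10 of the 11 fits that each left out 1 library (adjusted p up to 0.25), and it held with DESeq2 (1.57, adjusted p = 0.0004) and without the 3 libraries that stood apart (1.93, adjusted p = 0.0021).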

How the results depend on the processing

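The 13 differences of the members gave 221 alternative values: 201 kept their direction and their side of the threshold, 2 came to pass it, 18 lost it, and none changed direction. The fetal excess of each member in each cell type passed under all of them. Counts of genes called moved more. In fetal against adult HSC (732) they were 1536 with DESeq2, 2336 without the 3 libraries that stood apart, and from 215 to 800 with 1 library left out. In LMPP (2259) they were 3396, 4415 and from 1364 to 3178. For LMPP against HSC in adult marrow (2515) they were 4311 without the 3 libraries, 4338 with the replicate block on the adult libraries, and from 1634 to 3100. In fetal liver (2656) they were 4001 with only the groups compared, 5555 without the 3 libraries, and from 604 to 3703. For the interaction (141) they were 661 with DESeq2, 86 with the replicate block, 781 without the 3 libraries, and from 32 to 169. The cause was not tested.

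With 1 library left out, Igf2bp1 in fetal LMPP against fetal HSC ranged from 0.61 to 0.97, Igf2bp2 there from -1.04 to -0.81, Igf2bp3 there from 1.29 to 1.37, and the Igf2bp2 interaction from 1.47 to 1.78; Igf2bp1 there was 0.97 without the 3 libraries. The replicate block changed no member's call except the Igf2bp2 interaction (1.62, adjusted p = 0.097). Same-numbered pairs other than adult HSC with adult LMPP had correlations of their deviations from -0.144 to 0.0842. G3bp1, not called in HSC, ranged from -0.05 to 0.11 with 1 library left out and was below 0 without adult HSC replicate 2 (-0.05) and without fetal HSC replicate 1 (-0.03). In the upper part of each peak list by signal (above its median), 0 lists had a start-site peak for Igf2bp1, Igf2bp2 or Igf2bp3; within 5 kb Igf2bp3 had one in 4 lists; and with overlap over 50% of both peaks required, 0 pairs of lists shared a peak at Igf2bp1 or at Igf2bp3. Peak lists have no replicates, and adult Igf2bp3 levels rest on few counts.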
